A study of Mus musculus with 12 samples.

Results

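The 10 genes described here are the tumour suppressor gene Trp53, its regulator and target Mdm2, the p53 targets Cdkn1a, Ccng1 and Trp53inp1, the pro-apoptotic genes Pmaip1, Bax and Bbc3, and the anti-apoptotic genes Bcl2 and Bcl2l1. They were chosen by name as central members of the p53 pathway and of the BCL2 family, and each was matched to 1 of 40039 loci in the deposited models. RNA was measured in mouse embryonic stem (ES) cells of strain C57BL/6J in 4 groups of 3 libraries, 12 in all: wild-type (WT) and Notch1-/- cells, each at day 0 and at day 6 of differentiation. All cells were grown in medium with the cytokine LIF, on feeder fibroblasts or on gelatin, and the labels do not say which library had feeders. Cardiac differentiation was started by aggregating the cells in hanging drops into embryoid bodies, spheres in which early embryonic tissues form. The labels speak of biological replicates but name neither separate cultures nor the number of Notch1-/- clones, so the p-values describe how far these particular libraries scatter, and that scatter may be technical.

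The protein p53 is a transcription factor that is kept low by Mdm2, a ubiquitin ligase that marks it for degradation and whose own gene p53 activates. When DNA is damaged or cells are stressed, p53 accumulates and raises genes that halt the cell cycle, such as Cdkn1a, and genes of the BCL2 family that open the mitochondrial membrane, such as Bax, Pmaip1 (Noxa) and Bbc3 (Puma). Bcl2 and Bcl2l1 oppose that step by binding the pro-apoptotic members. ES cells are known for abundant p53 and for dying readily after DNA damage.

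Levels are given as CPM (counts scaled to the TMM-adjusted library size) or, where counts could not be used, as FPKM, the authors' values per transcript length and library size. Counts are missing for Trp53 (XLOC_004660) and Cdkn1a (XLOC_014939), whose loci had 0 counts in all 12 libraries. All of their exon length was shared with a locus on the other strand, which for Trp53 holds Wrap53 and Efnb3. For Trp53inp1 (XLOC_024144) 79.3% of the exon length was shared, mostly with the locus of Ints8, and FPKM was used as well. Whether strand was used is not given, so FPKM of Trp53, Cdkn1a and Trp53inp1 may include reads of the overlapping loci. Bax lay in a merged locus (XLOC_032918) with Ftl1, the ferritin light chain, and Dhdh, and its values are those of the 3 genes together. Ccng1 shared a merged locus (XLOC_005375) with Hmmr, a mitotic gene, and their values likewise cannot be told apart. The remaining 5 genes had a locus of their own. A call is an adjusted p under 0.05 over all loci tested, from edgeR's quasi-likelihood test for counts and from limma for log2(FPKM + 1), both with Benjamini-Hochberg adjustment.

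The libraries held from 100637179 to 134662426 counts, so counting error was small against the spread between libraries. Notch1 itself had 24.7 to 61.6 CPM in the 6 WT libraries and 3.8 to 6.8 CPM in the 6 Notch1-/- libraries, with no overlap. Of 8 tested markers of pluripotent cells, 7 fell by day 6 in each genotype, while 8 of 8 cardiac and mesoderm markers rose in WT and 4 of 8 in Notch1-/- cells. At day 6 the Notch1-/- libraries were lower than WT in 7 of 9 markers of endothelium and blood, and in 5 of 7 of visceral endoderm. Markers of feeder fibroblasts were present at both days. By day 6, 12 of 21 fell and 2 rose in WT (Postn and Acta2), and 19 of 21 fell and 1 rose in Notch1-/- cells (Fn1). Their summed level in the 2 days overlapped in both genotypes. At day 0 that sum ran from 4043 to 8059 CPM in WT and from 2822 to 5287 CPM in Notch1-/- libraries, highest in library 3 of each. At day 6 it ran from 5289.8 to 6531 and from 2574 to 4934 CPM. At both days most of it was Fn1, Vim and Col1a1, of which none was at 0. Fn1 alone had a mean of 3210.1 CPM in WT and 2124 CPM in Notch1-/- cells at day 0. Bulk values cannot tell fewer cells of a type from less RNA per cell.

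Pmaip1 and the Bax locus were the 2 members that differed between the genotypes. Both were higher in Notch1-/- cells at day 0 and further apart at day 6, while the other 8 were not called at either day. Over time, Bcl2 rose and Mdm2 fell in both genotypes, and Pmaip1 fell in WT and rose in Notch1-/- cells. The levels of all members by library, and their changes with 95% confidence intervals, are plotted gene by gene.

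**Figure D1:**
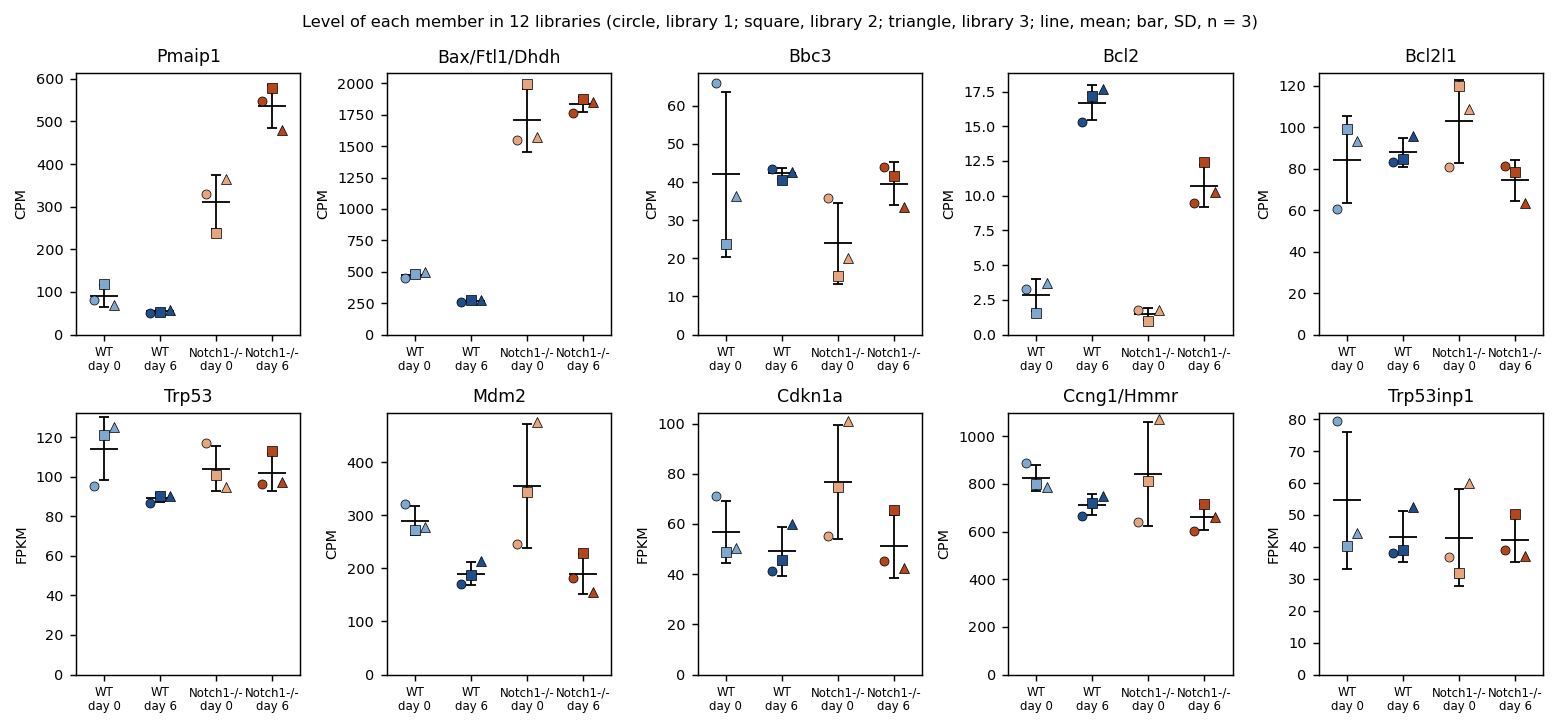
Level of each member (y axis, CPM from counts or FPKM, from 0) in the 4 groups (x axis); points are libraries, lines the mean and bars the SD (n = 3). Pmaip1 and the Bax/Ftl1/Dhdh locus are high in all 6 Notch1-/- libraries, and Bcl2 is high in all 6 day 6 libraries.

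**Figure D2:**
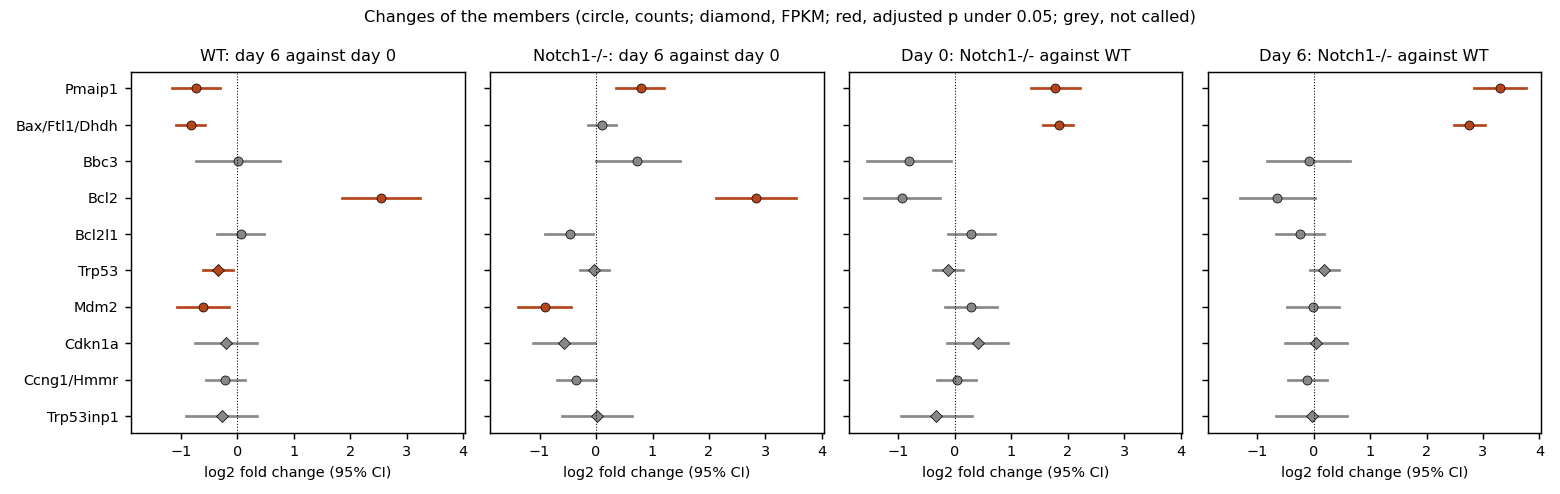
Log2 fold change of each member (x axis) in 4 contrasts, with 95% confidence intervals; circles are edgeR estimates from counts, diamonds limma estimates from log2(FPKM + 1), red an adjusted p under 0.05. Pmaip1 and the Bax locus stand to the right of 0 in both contrasts of Notch1-/- against WT, where the other 8 members are grey.

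Trp53 (mm9, chr11:69393861-69405494, plus strand) was abundant in every group by FPKM, at 86.9 to 125 FPKM over the 12 libraries. These values may include reads of the locus on the other strand. Trp53 had 95.5, 121 and 125 FPKM in the undifferentiated WT libraries 1, 2 and 3, and 86.9, 90.4 and 90.0 FPKM in the WT embryoid bodies of day 6. The Notch1-/- libraries gave 117, 101 and 95 FPKM at day 0, then 96.1, 113 and 97.5 FPKM at day 6. The WT day 6 libraries lay below all others, by a small margin. The fall in WT was 0.34 on the log2 scale (-0.34, SE 0.12, adjusted p = 0.0379 with limma). The call held without WT day 0 library 1, but was lost without any other single WT library. The adjusted p was 0.1 or 0.124 without WT day 0 library 2 or 3 (limma). Without WT day 6 library 1, 2 or 3 the adjusted p was 0.106, 0.0835 or 0.0824. It was 0.117 without the day 0 library richest in feeder markers of each genotype, and over 11 alternatives it ran from 0.00531 to 0.124. Notch1-/- against WT gave -0.12 at day 0 (95% interval -0.38 to 0.14) and 0.19 at day 6 (-0.07 to 0.45). For the FPKM of this locus, these intervals leave room for a change of at most 1.37-fold in either direction.

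Mdm2 (XLOC_003659, chr10:117125932-117149900, minus strand), the ubiquitin ligase for p53, stood at 320.5, 272 and 278 CPM in undifferentiated WT cells, against 169.6, 187 and 213 CPM in WT embryoid bodies. The Notch1-/- values were 246, 344 and 476 CPM before and 182, 229.5 and 155 CPM after differentiation. Day 6 lay below day 0 without overlap in both genotypes, and the widest spread was at day 0 in Notch1-/- cells. Mdm2 fell by 0.91 on the log2 scale in Notch1-/- cells (-0.91, SE 0.21, adjusted p = 0.00564, edgeR's quasi-likelihood test). The fall in WT was smaller (-0.61, SE 0.21, adjusted p = 0.0346, edgeR) and sensitive to the settings, since RLE scaling gave 0.0538 and DESeq2 0.0781. Leaving out WT day 0 library 1 or 3 gave an adjusted p of 0.0876 or 0.0587, and WT day 6 library 1 or 2 gave 0.126 or 0.0975; over its 15 alternatives it ran from 0.00926 to 0.126. The 2 falls were not shown to differ (interaction -0.30, SE 0.30, adjusted p = 0.576, edgeR). The genotypes were close at each day, with 0.29 (95% interval -0.17 to 0.75) at day 0 and -0.01 (-0.47 to 0.45) at day 6.

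Cdkn1a (chr17:29227931-29237667, plus strand) encodes p21, an inhibitor of cyclin-dependent kinases and the best known arrest target of p53. Its level was 71.2, 48.8 and 50.3 FPKM in undifferentiated WT cells, and 41.4, 45.7 and 60.1 FPKM in WT embryoid bodies. The Notch1-/- libraries read 55.0, 74.9 and 101 FPKM, then 45.3, 65.5 and 42.5 FPKM. All 4 groups overlapped, and no contrast was called. Notch1-/- against WT gave 0.41 at day 0 (95% interval -0.14 to 0.95) and 0.05 at day 6 (-0.50 to 0.59), and the change over time in Notch1-/- cells was -0.56 (SE 0.25, adjusted p = 0.101, limma). Without Notch1-/- day 0 library 1 that last value was -0.78, with an adjusted p of 0.0305 (0.0305 to 0.34 over 11 alternatives).

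Ccng1, which encodes cyclin G1, a partner of a phosphatase that acts on Mdm2, was read together with Hmmr (chr11:40514889-40582033, minus strand). WT libraries gave 887, 801 and 786 CPM before differentiation and 667, 721 and 751 CPM as embryoid bodies. Notch1-/- libraries gave 642, 812 and 1073 CPM, then 604, 715 and 662 CPM. The 2 WT groups did not overlap, but no contrast was called, and the change over time was -0.21 (SE 0.16) in WT and -0.35 (SE 0.16) in Notch1-/- cells (adjusted p = 0.314 and 0.106, edgeR). The second was called without Notch1-/- day 0 library 1 (-0.53, adjusted p = 0.0121) and under upper quartile scaling (-0.51, adjusted p = 0.0348), and its adjusted p ran from 0.0121 to 0.476 over 15 alternatives. Notch1-/- against WT gave 0.03 at day 0 (95% interval -0.32 to 0.38), which was -0.17 without Notch1-/- day 0 library 3, and -0.11 at day 6 (-0.46 to 0.24).

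Trp53inp1 (chr4:11078331-11117938, plus strand), a stress-induced nuclear protein that promotes p53 activity, reached 79.3, 40.3 and 44.2 FPKM in undifferentiated WT cells and 38.1, 38.9 and 52.4 FPKM in WT embryoid bodies. Among Notch1-/- libraries it reached 36.9, 31.7 and 60.0 FPKM before, and 39.0, 50.2 and 37.2 FPKM after, differentiation. The groups overlapped and no contrast was called, with Notch1-/- minus WT at -0.33 (95% interval -0.95 to 0.30) at day 0 and -0.03 (-0.66 to 0.59) at day 6. Counts over the unshared part of Trp53inp1 gave 0.57 for the WT change over time (adjusted p = 0.0718, edgeR) where FPKM gave -0.28 (adjusted p = 0.446, limma), so its direction depends on the measure.

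Within groups, Mdm2, Cdkn1a, the Ccng1 locus and Trp53inp1 had their highest value in the same libraries, by the measure used for each. All 4 were highest in library 1 of WT day 0, library 3 of WT day 6, library 3 of Notch1-/- day 0 and library 2 of Notch1-/- day 6. Of the 23991 loci tested by counts, 293 (1.22%) shared that order of highest libraries, and of the 13371 tested by FPKM, 193 (1.44%). Among 22 tested genes of the other p53 targets, 3 had it: Eda2r, Ei24 and Ckap2. The other 6 members, Trp53, Pmaip1, the Bax locus, Bbc3, Bcl2 and Bcl2l1, did not follow it in full. Pmaip1 differed in WT day 0 only, where library 2 was highest, and each of the others shared part of it. For Trp53inp1 the pattern held by FPKM only. Counts over its unshared part were highest in WT day 0 library 3 (7.36 CPM), WT day 6 library 1 (9.47 CPM) and Notch1-/- day 6 library 1 (5.56 CPM). In Notch1-/- day 0 they were highest in library 3 (4.74 CPM), as by FPKM. The pattern was noticed after the values were seen and is a description of which library was highest. The summed level of feeder markers was highest in the same library as the pattern in both Notch1-/- groups, but not in WT. There it was highest in library 3 at day 0, and at day 6 lowest in library 3, where the pattern was highest. Fn1 made up much of that sum, with a mean of 3484 CPM in Notch1-/- day 6. Over time Fn1 rose in Notch1-/- cells while 19 of 21 markers fell, so the order of that sum is largely an order of Fn1 there. The part of feeder cells in the pattern was not tested.

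The loci most like 3 members over the 12 libraries, by Pearson's r of log2 levels among about 7615 single-gene loci, were the following. For Trp53 they included Pelp1 (r = 0.915) and Tcof1 (0.903). For Mdm2 they were Ptgs1 (0.944), Glis3 (0.939) and Tbc1d15 (0.931), and for Pmaip1 they were Ahcy (0.988), Ankrd31 (0.977) and Klhdc4 (0.974). These values are descriptions over libraries that share their groups and their scaling.

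**Figure D3:**
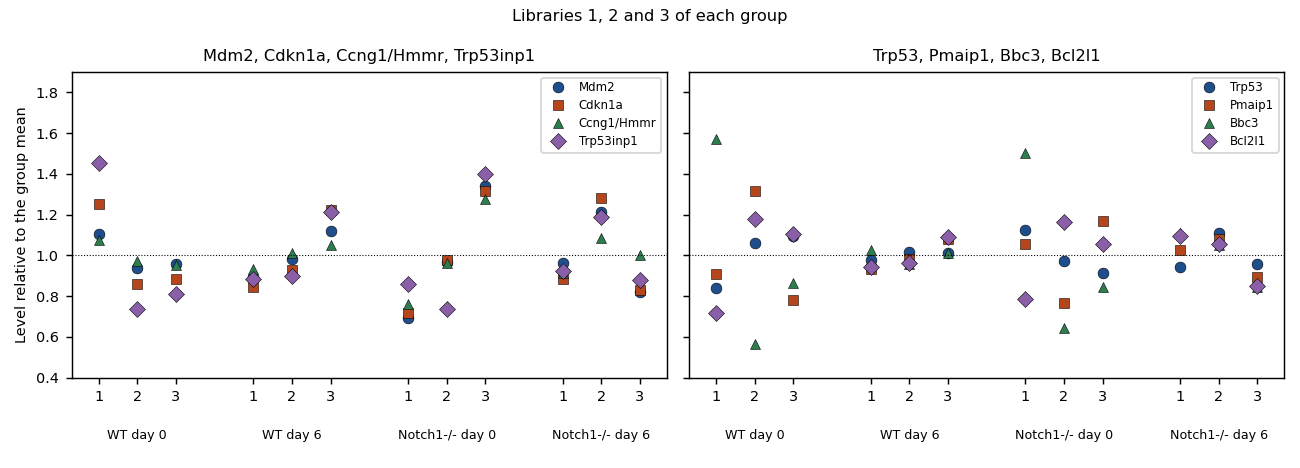
Level of each gene relative to the mean of its own group (y axis, ratio) in libraries 1, 2 and 3 of each group (x axis). On the left Mdm2, Cdkn1a, Ccng1/Hmmr and Trp53inp1 all peak in WT day 0 library 1, WT day 6 library 3, Notch1-/- day 0 library 3 and Notch1-/- day 6 library 2. On the right none of 4 other members shares all of these peaks, and Pmaip1 differs only in WT day 0, where library 2 is highest. Trp53inp1 is drawn in FPKM, and counts of its unshared part peak elsewhere in all groups but Notch1-/- day 0.

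p53 binds a response element made of a pair of 10-base units (decamers) of the p53 consensus, which reads the same on both strands. The promoter windows of RefSeq (build GRCm38.p6, 250 bases before to 50 after each start) were searched for it, since several members are known p53 targets. Of 32851 windows 8.36% hold at least 1 exact decamer, and so do 5 of the 13 windows of the members. These 13 belong to 8 of the 10 members, some of which have several. The stretches of 4 targets are shown 5′ to 3′ on the gene's strand, with the decamers in capitals and the best pair at most 13 bases apart.
Cdkn1a: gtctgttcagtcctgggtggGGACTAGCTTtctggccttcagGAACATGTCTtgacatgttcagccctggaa
Ccng1: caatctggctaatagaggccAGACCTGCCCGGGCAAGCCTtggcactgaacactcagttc
Bax: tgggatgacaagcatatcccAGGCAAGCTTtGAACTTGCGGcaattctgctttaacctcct
Mdm2: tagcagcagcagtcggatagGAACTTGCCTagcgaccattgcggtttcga
The Cdkn1a stretch (chr17:29090886-29090957, plus strand) matches the consensus at 20 of 20 positions across a spacer of 12 bases, and 0.0731% of all windows match at least as well. The 10 bases right after its second decamer, in lower case, miss the consensus at the first base only. The other Cdkn1a window (chr17:29093519-29093818) has no exact decamer, and its best pair matches at 15 of 20, as 68.7% of windows do or better. The Ccng1 stretch (chr11:40755442-40755501, minus strand) matches at 19 of 20 with no spacer, as do 0.627% of windows or better. The Bax stretch (chr7:45467059-45467119, minus strand) matches at 18 of 20 around 1 base, a score that 4.09% of windows reach, and has 1 exact decamer. In the Mdm2 stretch (chr10:117710915-117710964, minus strand) the single exact decamer is shown, since its best pair reached 16 of 20, as 40.4% of windows do. The Trp53 window also has an exact decamer, while the windows of Bbc3, Bcl2 and Bcl2l1 have none. A match is a description of the sequence, not a bound site.

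Pmaip1 (XLOC_016888, chr18:66618258-66625212, plus strand) encodes Noxa, a BH3-only protein that binds and neutralises the anti-apoptotic protein Mcl1. In undifferentiated WT libraries 1, 2 and 3 it stood at 82.1, 119 and 70.5 CPM, and in WT embryoid bodies at 50.8, 53.3 and 58.8 CPM. Undifferentiated Notch1-/- libraries gave 329, 239 and 364 CPM, and Notch1-/- embryoid bodies 549, 578 and 480.2 CPM. None of the 4 groups overlapped another, and the order from high to low was Notch1-/- day 6, Notch1-/- day 0, WT day 0 and WT day 6. Pmaip1 was 3.43-fold higher in Notch1-/- cells at day 0 (log2 1.78, SE 0.20, adjusted p = 0.000196, edgeR) and 9.87-fold higher at day 6 (log2 3.30, SE 0.21, adjusted p = 1.24e-06, edgeR). The 95% interval of the day 6 fold ran from 7.18 to 13.6. Over time it fell in WT (-0.74, SE 0.20, adjusted p = 0.00884, edgeR) and rose in Notch1-/- cells (0.79, SE 0.19, adjusted p = 0.00764, edgeR). That difference was itself called (interaction 1.52, SE 0.28, adjusted p = 0.00439, edgeR). FPKM gave like values, with 3.15 at day 6 and 1.52 for the interaction. Without the day 0 library richest in feeder markers of each genotype, the day 0 difference of Pmaip1 was 1.5 (adjusted p = 0.00492, edgeR).

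The Bax locus (chr7:52698899-52744985, minus strand) holds Bax, whose protein forms pores in the outer mitochondrial membrane, together with Ftl1 and Dhdh. Its WT values were 449, 485 and 498 CPM before differentiation and 256, 276 and 277 CPM in embryoid bodies. Its Notch1-/- values were 1547, 1994 and 1574 CPM before, and 1767, 1874 and 1855 CPM after. Every Notch1-/- library was above every WT library, and the WT groups did not overlap. The locus was 3.57-fold higher in Notch1-/- cells at day 0 (log2 1.84, SE 0.12, adjusted p = 4.38e-06, edgeR) and 6.80-fold higher at day 6 (log2 2.76, SE 0.13, adjusted p = 7.47e-08, edgeR). It fell by 0.82 on the log2 scale in WT (-0.82, SE 0.12, adjusted p = 0.000183, edgeR) and was not called in Notch1-/- cells (0.10, 95% interval -0.15 to 0.36). The changes over time differed between the genotypes (interaction 0.93, SE 0.17, adjusted p = 0.00423, edgeR). Which of the 3 genes carried the difference cannot be told apart from values of the merged locus. A further locus, which holds Gys1, overlaps 10.2% of the exon length.

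Bbc3 (XLOC_031306, chr7:16887782-16903683, plus strand) encodes Puma, a BH3-only protein that binds every major anti-apoptotic member of the family. WT libraries read 65.9, 23.7 and 36.3 CPM before differentiation, then 43.4, 40.6 and 42.7 CPM. Notch1-/- libraries read 35.9, 15.4 and 20.2 CPM, then 44.0, 41.6 and 33.4 CPM. Library 1 was the highest at day 0 in both genotypes, and the groups overlapped. In each of the 3 same-numbered pairs of day 0 libraries the Notch1-/- value was the lower one. Unlike Pmaip1, Bbc3 was not called in any contrast. Notch1-/- minus WT was -0.82 at day 0 (SE 0.34, adjusted p = 0.147, edgeR) and -0.09 at day 6 (95% interval -0.83 to 0.65). With the block on replicate number, which pairs the day 0 libraries, the day 0 value was -0.80 (SE 0.25, adjusted p = 0.0584, edgeR). The day 0 value was called without WT day 0 library 2 (-1.09, adjusted p = 0.0286) or Notch1-/- day 0 library 1 (-1.23, adjusted p = 0.0282), with a range of 0.0282 to 0.591 over 15 alternatives. The change over time of Bbc3 in Notch1-/- cells was 0.73 (SE 0.34, adjusted p = 0.115, edgeR), and 1.14 without Notch1-/- day 0 library 1 (adjusted p = 0.0175). The block on replicate number gave 0.83 (adjusted p = 0.0247), and the adjusted p ran from 0.0175 to 0.341 over 15 alternatives.

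Bcl2 (XLOC_001202, chr1:108434756-108610867, minus strand), the founding anti-apoptotic member, was the lowest of the 10 per transcript length, at 0.184 to 2.07 FPKM over the 12 libraries. By counts, undifferentiated WT cells had 3.29, 1.58 and 3.75 CPM, and WT embryoid bodies 15.3, 17.2 and 17.7 CPM. Undifferentiated Notch1-/- cells had 1.76, 0.993 and 1.75 CPM, and Notch1-/- embryoid bodies 9.49, 12.4 and 10.3 CPM. All 6 day 6 libraries were above all 6 day 0 libraries. Bcl2 rose 5.83-fold in WT (log2 2.54, SE 0.32, adjusted p = 7.48e-05, edgeR) and 7.15-fold in Notch1-/- cells (log2 2.84, SE 0.33, adjusted p = 6.23e-05, edgeR). At day 6 the Notch1-/- libraries of Bcl2 were below the WT libraries without overlap, but the count test did not call it (-0.64, SE 0.30, adjusted p = 0.134, edgeR). The same contrast was called on log2(FPKM + 1) (-0.42, adjusted p = 0.00885, limma) and on counts of the 6 day 6 libraries alone (-0.64, adjusted p = 0.00502, edgeR), and its adjusted p ran from 0.00502 to 0.298 over 14 alternatives. At day 0 it was -0.94 (SE 0.31, adjusted p = 0.0781, edgeR), which DESeq2 called (-0.88, adjusted p = 0.0452), as did edgeR without WT day 0 library 2 (-1.22, adjusted p = 0.00677); the range over 15 alternatives was 0.00677 to 0.325.

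Bcl2l1 (XLOC_021354, chr2:152606399-152657430, minus strand), which encodes Bcl-xL, had 16.5 to 28.1 FPKM, above Bcl2 in every library on the scale per length. Counts gave 60.5, 99.4 and 93.2 CPM in undifferentiated WT cells and 83.1, 84.6 and 96.0 CPM in WT embryoid bodies. Notch1-/- cells gave 81.0, 119.8 and 109 CPM, then 81.4, 78.5 and 63.4 CPM. Only the 2 day 6 groups did not overlap, and no contrast was called. Notch1-/- minus WT was 0.29 at day 0 (95% interval -0.13 to 0.72) and -0.24 at day 6 (-0.66 to 0.18). The change over time in Notch1-/- cells was -0.47 (SE 0.20, adjusted p = 0.0786, edgeR), called without Notch1-/- day 0 library 1 (-0.63, adjusted p = 0.0225) and under upper quartile scaling (-0.63, adjusted p = 0.0309), with a range of 0.0225 to 0.254 over 15 alternatives.

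Counted together, 5 of the 10 members were called in WT over time: Bcl2 rose, and Pmaip1, the Bax locus, Mdm2 and Trp53 fell. The background of that contrast by counts was 18.4% of loci higher and 24.7% lower, and by FPKM 23.6% and 20.8%. Over time in Notch1-/- cells 3 were called, Pmaip1 and Bcl2 higher and Mdm2 lower, beside a background of 17.2% higher and 18.7% lower by counts (21.1% and 14% by FPKM). Without Notch1-/- day 0 library 1 this count was 7, with Bbc3 added as higher and Cdkn1a, the Ccng1 locus and Bcl2l1 as lower, while the share of loci called by counts was 36.3% against 35.9% with it. For WT the count was 3 without WT day 0 library 3, WT day 6 library 1 or WT day 6 library 2. The share of loci called by counts fell there too, to 36.1%, 31.5% and 30.8%, against 43.1% with all libraries. By FPKM it was 39.4%, 33.9% and 33.1%, against 44.4%.

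Between the genotypes, 2 of the 10 were called at each day, and both were higher in Notch1-/- cells. At day 0, 3.71% of loci were called higher and 5.86% lower by counts, and 2.92% and 3.28% by FPKM. At day 6 these shares were 13.7% and 14.4% by counts, and 15.7% and 16.4% by FPKM. The same 2 members were called in the interaction, where 6.36% of loci were called with a higher change in Notch1-/- cells and 4.92% with a lower one (7.2% and 6.72% by FPKM). Without WT day 0 library 2 the day 0 count was 4, with Bbc3 and Bcl2 added as lower. Under that setting the share of loci called by counts also rose, from 3.71% to 9.95% higher and from 5.86% to 13.4% lower. The contrasts share groups with each other, so their calls are not independent.

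Other genes of the pathway were taken from 6 lists, in which 62 genes had a usable locus. Of 22 other p53 targets tested, edgeR called 0 higher and 2 lower at day 0 (0 higher and 3 lower at an unadjusted p under 0.05, and DESeq2 called 3), and 3 higher and 3 lower at day 6. Both counts were near the share of all loci called, 9.56% at day 0 and 28.1% at day 6. At day 0 the 2 lower calls, Gadd45a and Steap3, were lost without the feeder-richest libraries (adjusted p = 0.137 and 0.209, edgeR). Both were also lost without WT day 0 library 1 or 3 or Notch1-/- day 0 library 2 or 3, and Steap3 without Notch1-/- day 0 library 1 too, with an adjusted p of up to 0.148 for Gadd45a and 0.144 for Steap3. The median log2 difference at day 6 was -0.01 for 7 targets of cell death and -0.07 for 11 of repair and metabolism, beside 0.01 over all loci. For 4 arrest targets it was -0.70 by counts, from values of -1.83 (Gadd45a), -1.02 (Ptprv), -0.38 (Plk2) and 0.22 (Plk3), of which the first was 0.23 by FPKM. Cd82, a membrane protein of the tetraspanin family, fell to 1.74 ± 0.673 CPM in Notch1-/- cells at day 6 against 6.26 ± 0.517 in WT (SD, n = 3; -1.85, SE 0.33, adjusted p = 0.00145, edgeR). Ptprv, a phosphatase-like arrest target, was lower too (-1.02, SE 0.21, adjusted p = 0.00357, edgeR). Gadd45a, a stress sensor, was lower by counts (-1.83) but not by FPKM (0.23), with 37% of its exon length shared, and its direction is uncertain. The 3 higher ones were Steap3 (1.92, SE 0.44, adjusted p = 0.00649), Perp (0.86, SE 0.25, adjusted p = 0.0205) and Tigar (0.78, SE 0.21, adjusted p = 0.014; all edgeR). The call of Steap3 was lost on log2(FPKM + 1) (0.98, adjusted p = 0.0683, limma). Those of Perp and Tigar were lost without WT day 6 library 1 (0.0908 and 0.0708) or Notch1-/- day 6 library 2 (0.115 and 0.0691), and that of Perp also without WT day 6 library 2 (0.0591).

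Over time, 4 of the 11 targets of repair and metabolism fell and 1 rose in WT, and 4 fell and 2 rose in Notch1-/- cells. Over all loci 24.7% fell and 18.4% rose in WT, and 18.7% fell and 17.2% rose in Notch1-/- cells. Tigar, which directs glucose into the pentose phosphate pathway, fell in WT from 88.8 ± 16.9 to 33.7 ± 3.99 CPM (SD, n = 3; -1.40, SE 0.21, adjusted p = 0.00025, edgeR). Ckap2, a spindle protein, fell in WT (-0.64, SE 0.13, adjusted p = 0.00159, edgeR). Both were also called lower in Notch1-/- cells, Tigar at -0.74 (adjusted p = 0.0145, edgeR) and Ckap2 at -0.42 (adjusted p = 0.0213, edgeR). Among targets of cell death, Perp, a membrane protein of desmosomes, fell in WT (-1.32, SE 0.25, adjusted p = 0.00116, edgeR). Its change in Notch1-/- cells was -0.55 (adjusted p = 0.0993, edgeR). Fas, a death receptor, fell in Notch1-/- cells (-2.87, SE 0.51, adjusted p = 0.00105, edgeR) and changed by -1.18 in WT (adjusted p = 0.0632, edgeR). The interaction was not called for Tigar, Ckap2, Perp or Fas (adjusted p = 0.177, 0.479, 0.181 and 0.134, edgeR). In Notch1-/- cells 2 of the 7 targets of cell death rose and 2 fell. Without the day 0 libraries richest in feeder markers, 1 of these 4 calls was made, and 3 of 6 among targets of repair and metabolism. Under that setting the share of all loci called fell from 35.9% to 27.6%. The feeder marker list had a median log2 change of -3.48 over the same contrast, and its part in these falls was not tested.

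Of 16 regulators and paralogs of p53, 11 were called in WT over time (6 higher, 5 lower) and 8 in Notch1-/- cells (5 higher, 3 lower), where 43.1% and 35.9% of all loci were called. Dyrk2, a kinase that phosphorylates p53, rose from 37.9 ± 5.55 to 127 ± 11.9 CPM in WT (SD, n = 3; 1.74, SE 0.14, adjusted p = 4.08e-06, edgeR) and to 81.8 ± 2.94 CPM in Notch1-/- cells (1.10, SE 0.14, adjusted p = 0.000125, edgeR). Cdkn2a, counted as a whole locus whose products include the Mdm2 inhibitor Arf, fell from 35.8 ± 9.87 to 3.70 ± 0.96 CPM in Notch1-/- cells (SD, n = 3; -3.27, SE 0.27, adjusted p = 8.46e-06, edgeR). At day 6 it was lower than in WT (-1.89, SE 0.26, adjusted p = 0.000225, edgeR), where it had 13.7 ± 2.87 CPM. At that day the damage kinases Chek2 (1.10, SE 0.18, adjusted p = 0.000744) and Atm (0.72, SE 0.13, adjusted p = 0.00175) were higher in Notch1-/- cells (edgeR). In all, 3 of the 16 were higher and 3 lower at day 6, and 1 higher and 2 lower at day 0. The shares of all loci called were 28.1% and 9.56%. These 3 day 0 calls were lost without the feeder-richest day 0 libraries, where 4.05% of all loci were called.

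Of 10 other BCL2 family genes, 3 were higher and 2 lower in Notch1-/- cells at day 6, with a median of 0.07, where 13.7% of all loci were higher and 14.4% lower. Of the 3 higher ones Bcl2l13 was 0.73 by counts (adjusted p = 0.0188, edgeR) but 0.06 by FPKM (adjusted p = 0.704, limma). At day 0 both edgeR and DESeq2 called 0 of them, with 1 lower at an unadjusted p under 0.05. Bok, a pore former related to Bax, was higher (1.19, SE 0.29, adjusted p = 0.00895, edgeR), with 14.5 to 28.9 CPM against 7.11 to 10.2 CPM in WT. Bmf, a BH3-only protein, was lower, with 20.8 to 31.4 CPM against 88.0 to 125 CPM (-2.04, SE 0.56, adjusted p = 0.0176, edgeR). Its call was lost without WT day 6 library 1 (0.0509) or Notch1-/- day 6 library 2 or 3 (0.0669 and 0.053). Bak1, the partner of Bax in pore formation, rose over time in Notch1-/- cells (0.80, SE 0.19, adjusted p = 0.00645, edgeR). In WT its change was 0.35 (adjusted p = 0.163, edgeR), and its interaction was not called (0.46, adjusted p = 0.319, edgeR). With the block on replicate number, 5 of these 10 genes were called over time in Notch1-/- cells, against 3 without it. Over all loci the block called 39.2% in that contrast, against 35.9% without it.

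Of 14 caspases and their regulators, 1 was higher and 2 were lower in Notch1-/- cells at day 6, and the median was -0.00. That is 3 of 14 called, beside 28.1% of all loci. Xiap, an inhibitor of caspases, rose in WT from 117 ± 12.2 to 208 ± 8.73 CPM (SD, n = 3; 0.83, SE 0.11, adjusted p = 0.000115, edgeR) and had 147 ± 5.39 and 145 ± 7.52 CPM in Notch1-/- cells. At day 6 Xiap was lower in Notch1-/- cells (-0.52, SE 0.11, adjusted p = 0.00419, edgeR), and so was Cflar, which blocks caspase 8 (-0.98, SE 0.26, adjusted p = 0.0135, edgeR). Over time 3 of the 14 rose and 1 fell in WT, and 4 rose and 1 fell in Notch1-/- cells, beside 43.1% and 35.9% of all loci called. The 1 that fell in both was Casp12, from 3.91 ± 2.30 to 0.149 ± 0.0293 CPM in WT (SD, n = 3), at levels near 0 by day 6. In WT the count was 8 rather than 4 without the feeder-richest day 0 libraries, where 37.2% of all loci were called against 43.1% with them.

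**Figure D4:**
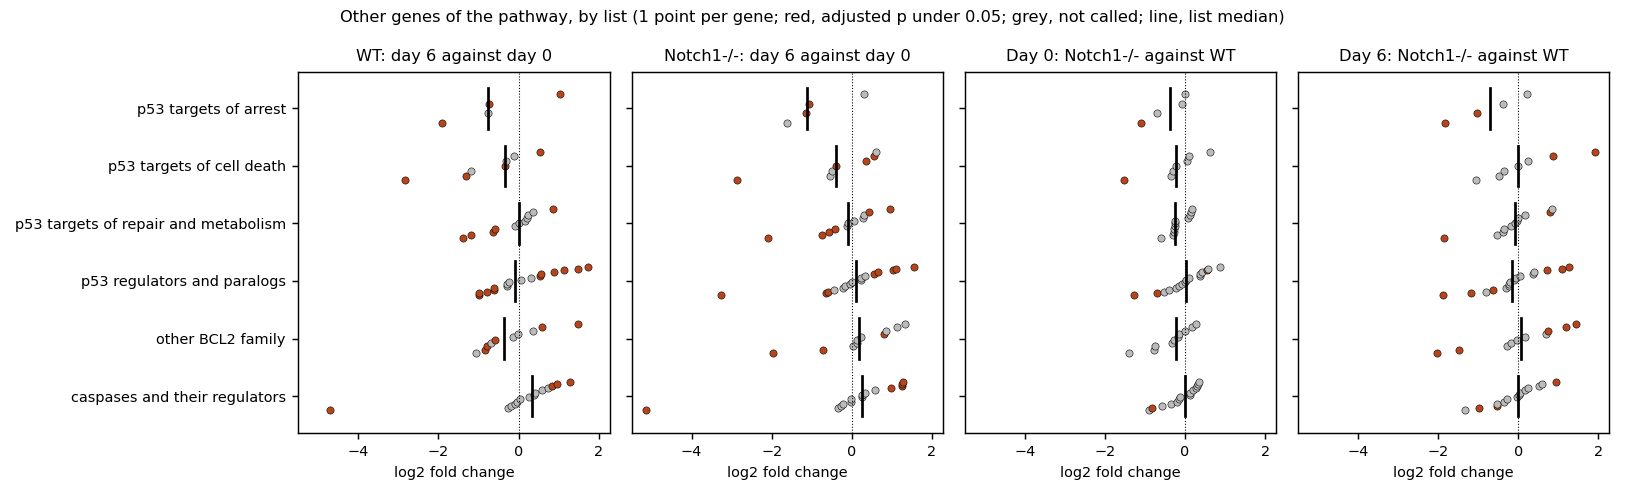
Log2 fold change (x axis) of each tested gene of 6 lists (y axis) in 4 contrasts, from counts; red points have an adjusted p under 0.05 and black lines are list medians. Between the genotypes most points are grey, with 6 of 22 p53 targets called at day 6, where 28.1% of all loci were called.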

How the data were processed

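Poly(A) RNA of 12 libraries was sequenced as read pairs on an Illumina HiSeq2000, per the labels' protocols. The deposited tables hold whole-number counts and, separately, FPKM that the authors scaled by transcript length and depth, both by locus of their merged transcript models (mm9, 1-based). Tools listed in the submitters' processing notes are HTSeq 0.5.4p3, Cufflinks 2.1.1, TopHat2 2.0.8 and DESeq, with build mm9. What each did, and whether strand was used, is not given in the sources used here. Overlapping loci seem to lose reads in the deposited counts: 4677 loci share at least 50% of their exon length, and where a member did, the deposited FPKM was used instead.

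The files give no gene symbols. Loci were named by matching runs of intron and exon lengths to GENCODE transcripts of a later build, with no coordinates converted. This linked 16291 loci to 1 gene, 358 of them by an intron of at least 10000 bases only (Bcl2 among them), and 1465 to several. As a check against chance, 3 loci matched on the wrong chromosome. Names rest on this inference.

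Counts were tested with edgeR 4.0.16 (R 4.3.3; quasi-likelihood test, TMM factors 0.908 to 1.14, default expression filter, 23991 loci, all 12 libraries in 1 fit with a mean per group). FPKM was tested with limma 3.58.1 on log2(FPKM + 1) for 13371 loci with at least 1 FPKM in 3 libraries; such fold changes understate the change of low genes. Contrasts were day 6 against day 0 per genotype, Notch1-/- against WT per day, and the difference of the changes. On data simulated for Notch1-/- against WT at day 0, the count test recovered 19 of 100 loci changed 2-fold and 48 of 100 changed 4-fold. The changed loci were drawn from all 23991 loci, low ones included, and 7 unchanged loci were called as well. The FPKM test recovered 67 and 96 of 100 loci shifted by 1 and by 2 on the scale of log2(FPKM + 1), drawn from its 13371 loci. It called 3 unchanged loci. The loci and the kind of change differ, so these rates do not compare the 2 tests. Alternatives were upper quartile and RLE scaling, no filter, DESeq2 1.42.0, only the groups compared, a block on replicate number, a pseudocount of 0.1, each library left out, and 3 chosen after seeing the data. These 3 left out the feeder-richest day 0 libraries, centred FPKM on the median, and used counts of the unshared part of Trp53inp1.

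Labels number the replicates. At day 0, libraries of the same number in WT and Notch1-/- deviated together (r = 0.40, 0.28 and 0.16 over loci), so the numbers were taken to pair them there, from the data alone. No pair of replicates agreed within sampling noise (chi-square per degree of freedom 36 to 345).

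The members and lists were chosen with earlier results of these data known. Besides the 10 members, the named genes are Notch1, examples from the up to 3 called genes with the smallest p per list and contrast, the 3 most abundant feeder markers, and the 3 loci with the highest correlation to Trp53, Mdm2 and Pmaip1. Atm in the interaction, Bcl2l13 at day 6, Plk2, Plk3, Postn and Acta2 were named after their values were seen. A few genes that this rule names are not reported here. The list genes without a locus of their own, or with at least 50% of it shared, were left out. Promoter sequences are RefSeq's. Parts of the table not matched to a member were not used here.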

Additional observations from a re-analysis of the deposited data

Results flagged for a closer look

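Among the 10 members and 62 tested list genes, the change over differentiation differed between the genotypes for 10. The difference itself was tested (edgeR's interaction term, adjusted p under 0.05, 3 libraries per group). Values are the log2 change in Notch1-/- cells minus that in WT. Among the 10 members these were Pmaip1 (1.52, adjusted p = 0.00439) and the Bax locus (0.93, adjusted p = 0.00423). Among the list genes, Steap3, a ferrireductase (3.45, adjusted p = 0.00419), Trp73, a paralog of p53 (2.54, adjusted p = 0.00569), Bik, a BH3-only gene (2.20, adjusted p = 0.042), Chek2 (1.32, adjusted p = 0.00577) and Atm (0.63, adjusted p = 0.0479) were higher in this sense. Cdkn2a (-2.29, adjusted p = 0.00173), Cd82 (-2.01, adjusted p = 0.0143) and Xiap (-0.85, adjusted p = 0.00482) were lower. Over all loci, 6.36% were called higher and 4.92% lower in this test, 11.3% in either direction.

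The calls of Bik and Cd82 were lost without the feeder-richest day 0 libraries (adjusted p = 0.103 and 0.0589). That of Bik was also lost on log2(FPKM + 1) (1.35, adjusted p = 0.0526), and it reached an adjusted p of 0.108 with a single library left out (WT day 6 library 2). That of Atm was lost under most alternatives, among them DESeq2 (0.53, adjusted p = 0.112), RLE scaling (0.53, adjusted p = 0.102) and the replicate block (0.63, adjusted p = 0.0535), with an adjusted p of 0.0214 to 0.166 over 20 alternatives. Bik had 0.703 to 3.89 CPM over the libraries. Steap3 varied widely in WT at day 0, from 8.32 to 30.1 CPM, beside 2.78 to 3.03 CPM at day 6.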

How the results depend on the processing

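Over the alternatives, 672 of 738 values of single members kept their direction and their side of the threshold, 14 passed it newly, 13 no longer passed it and 39 changed sign; none of the 39 was called. The calls of Pmaip1 in all 5 contrasts, of the Bax locus in WT, between the genotypes and in the interaction, and of Bcl2 over time held under every alternative run. With the replicate block, 5, 4, 2, 2 and 2 members were called (5, 3, 2, 2 and 2 without it); at day 0 the block changed no member's call between the genotypes. Outside day 0 the replicates share only a number: same-numbered libraries correlated by 0.13, 0.13 and 0.05 in WT over time, where each was closest to its own number, by 0.17, 0.12 and -0.03 in Notch1-/- cells and by 0.12, 0.08 and -0.01 at day 6, where library 3 was closer to library 2. The block called Bbc3 in Notch1-/- cells over time (0.83), where the share of loci called by counts rose from 35.9% to 39.2%. Leaving out 1 library moved the count of called members over 3 to 4 in WT over time, 3 to 7 in Notch1-/- cells over time, 2 to 4 between the genotypes at day 0, and 2 to 2 at day 6 and in the interaction. Upper quartile scaling called 5 members in Notch1-/- cells over time, where it called 36.1% of loci by counts against 35.9% with TMM. It moved the median of all loci from -0.12 to -0.29 in WT and from -0.02 to -0.18 in Notch1-/- cells, where the higher share of calls went from 47.8% to 37.1%. The cause of these shifts was not tested.

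Values that changed sign, by setting, were as follows. Upper quartile scaling gave -0.05 for the Bax locus in Notch1-/- cells over time, -0.14 for Bbc3 and -0.11 for Bcl2l1 in WT over time, and 0.05 for Mdm2 between the genotypes at day 6. Without the feeder-richest day 0 libraries, the genotypes differed at day 0 by 0.02 for Trp53, 0.00 for Mdm2 and -0.21 for the Ccng1 locus, Bbc3 changed by -0.09 in WT, and the Ccng1 interaction was 0.11. FPKM gave -0.11 for the Ccng1 locus at day 0 with either pseudocount, and -0.25 (pseudocount 1) and -0.13 (0.1) for the Bcl2 interaction. Trp53inp1 changed by 0.57 in WT and had an interaction of -0.18 by counts of its unshared part, and by centred FPKM it changed by -0.09 in Notch1-/- cells and differed by 0.04 at day 6. Gadd45a in FPKM (pseudocount 1 and 0.1) gave 0.27 and 0.27 at day 0, 0.23 and 0.25 at day 6, and -1.70 and -1.75 in WT over time, and Bcl2l13 0.52 and 0.57 in WT over time, against -0.60 by counts, with 27.1% of its exon length shared. Leaving out 1 library spanned 0 for changes over time of Trp53 (-0.10 to 0.06) and Trp53inp1 (-0.17 to 0.28) in Notch1-/- cells, and of Bbc3 (-0.27 to 0.49), Trp53inp1 (-0.46 to 0.02) and Bcl2l1 (-0.13 to 0.20) in WT. It did so for the genotypes at day 6 in Bbc3 (-0.16 to 0.03), Mdm2 (-0.18 to 0.12), Cdkn1a (-0.14 to 0.20) and Trp53inp1 (-0.16 to 0.11), at day 0 in the Ccng1 locus (-0.17 to 0.20), and for its interaction (-0.32 to 0.05).

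Counts over all loci depended most on the settings for Notch1-/- against WT at day 0. There 2294 loci were called, 706 in a fit of those 6 libraries alone, 3685 by DESeq2, and 1124 to 5983 with 1 library left out (lowest without Notch1-/- library 2, highest without WT library 2). At day 6, 6741 loci were called, and 11055 with only the groups compared. For FPKM, no filter gave 10271 calls in WT over time (5934 with it), 1696 between the genotypes at day 0 (829) and 2804 in the interaction (1862), and the replicate block gave 577 higher and 692 lower at day 0 (390 and 439 without it). Centring FPKM on the median took the higher share of calls over time from 53.2% to 41.8% in WT and from 60.1% to 47.2% in Notch1-/- cells. Depth limits little here beside the scatter between libraries, except for genes near 0 such as Casp12.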
